A study of Penicillium oxalicum with 18 samples.

Results

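In Penicillium oxalicum, a filamentous fungus that secretes plant cell wall hydrolases, 36 of 9176 gene models formed a set that was high in glucose in the wild type and close in level between the wild type and a vib1 deletion strain. A gene model entered the set when its wild-type mean in glucose was at least 10 FPKM and lay at least 1 log2 unit above its wild-type mean in each of the other 2 media. In addition, its mean in the deletion strain had to lie within 1 log2 unit, or 2-fold, of the wild-type mean in every medium. These choices were made on log2 of the mean FPKM of 3 libraries plus 1. FPKM expresses fragments relative to gene length and to the mapped total of the library. The wild-type glucose differences and the strain differences of the members are therefore descriptions of how the members were chosen, and no p-value is printed for them. Counts of their calls (an adjusted p under 0.05 in a limma fit over all tested gene models) stand beside the share of all tested gene models, as a description from which nothing is read.

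The wild type was strain 114-2, and the other strain, written Dvib1 in the labels, carried a deletion of vib1. Both strains were first germinated for 24 h at 30 °C with 2% glucose, in a modified Vogel's medium, before transfer to modified Mendal's medium. The second culture also lasted 24 h and held 2% glucose, 2% N-acetylglucosamine (GlcNAc), or bran and microcrystalline cellulose at 1% each. The 3 media and 2 strains make 6 groups of 3 libraries, 18 in all, and every mycelium had seen glucose before the sampled culture. The labels do not say whether replicates were separate cultures or how many deletion clones were used, so the p-values below cover the spread among these samples only, and that spread may be technical.

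Glucose is taken up and burned in preference to most other carbon sources by filamentous fungi, which in its presence hold down many genes for the use of other substrates, a control called carbon catabolite repression. GlcNAc is the building block of chitin in the fungal cell wall, and bran with cellulose offers insoluble plant polysaccharides that must be cut outside the cell. In Neurospora crassa, the vib-1 gene encodes a transcription factor known for its part in the response to cellulose and in the cell death that follows fusion of incompatible strains. Member names and functions were not given in the sources used here. They appear under the locus tags of the deposited table, and the order of the account follows their levels and patterns.

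All 36 members passed the filter of 1 FPKM in at least 3 libraries, as did 8455 gene models in total. The set is described by its rule, as glucose-high genes with strain differences under 2-fold, which bounds the size of a difference and does not make it 0. A strain difference was called in at least 1 medium for 32 of the 36 members and for 89.4% of tested gene models. Library totals ran from 915800 to 1119000 FPKM, and read depth is unknown. Replicate 3 of the wild type in bran plus cellulose stood apart with the widest residual spread of the 18 libraries (root mean square 0.386 log2 units over the tested gene models). It was the lowest of its group in 23 of the 36 members, as was replicate 1 of the wild type in glucose, and replicate 1 of the deletion strain in glucose was the highest of its group in 24. Leaving out replicate 1 of the wild type in glucose changed the size of the set most, from 36 to 44. The deleted gene could not be checked, since no tag of the table is paired with the name vib1.

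Within the wild type, every member had its 3 glucose libraries above all 6 libraries of the other media, which 10.1% of tested gene models did. Because the members were chosen on these means, nothing is read from that count. Member means in glucose ran from 11.9 to 884.6 FPKM with a median of 80.2. Of the members, 16 averaged 100 FPKM or more, 11 lay from 50 to under 100, and 9 lay under 50. The median member mean was 21.4 FPKM in GlcNAc and 29.5 FPKM in bran plus cellulose. None of the 648 member values was 0, and 35 members exceeded 1 FPKM in every library. The exception was PDE_05898, with 0.59 FPKM in replicate 3 of deletion GlcNAc cultures. In bulk RNA, fewer hyphal cells expressing a gene and less RNA of it per cell cannot be told apart.

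**Figure D1:**
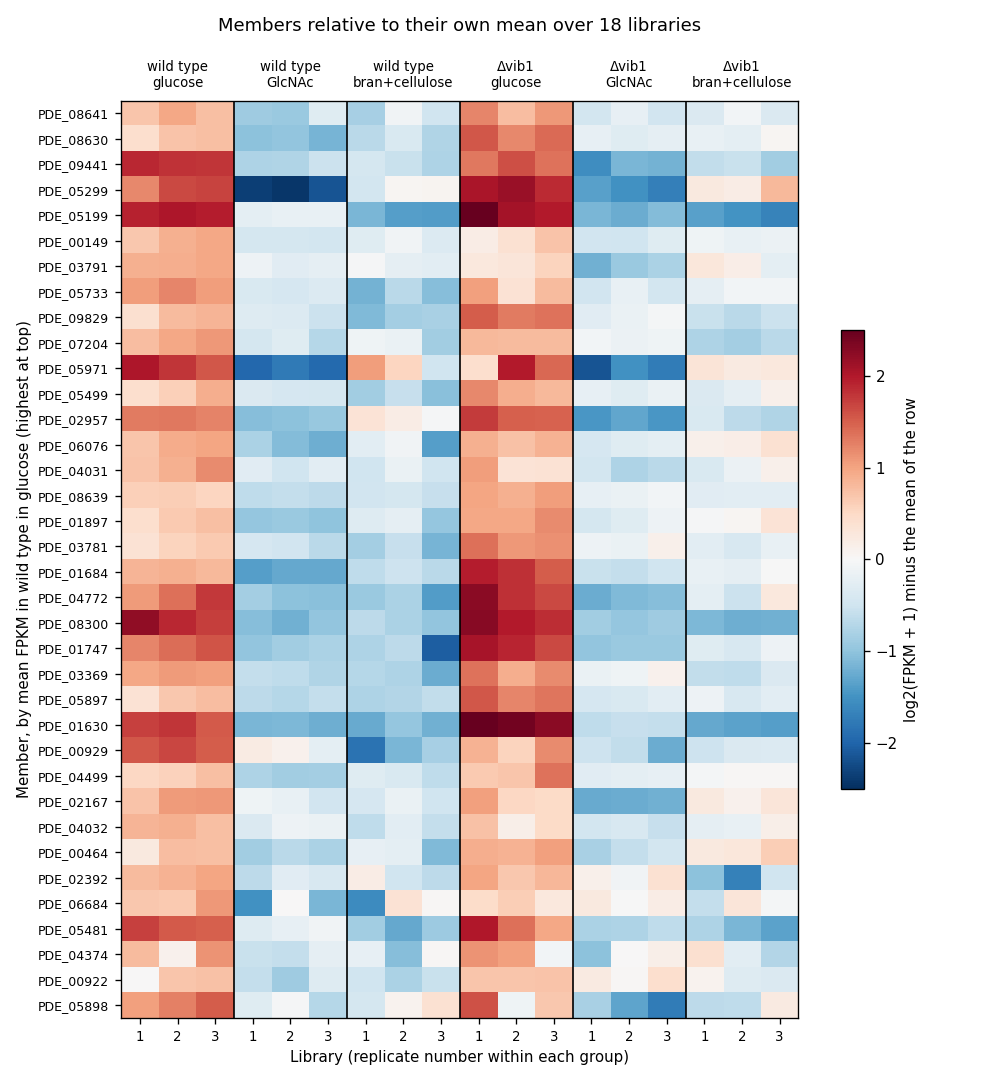
Heat map of the 36 members (rows, by mean FPKM in wild type in glucose, highest at top) in the 18 libraries (columns, 3 replicates for each strain and medium). Colour gives log2(FPKM + 1) minus the mean of the row, and both glucose blocks are red in nearly every row while the other 4 blocks are mostly blue.

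The most abundant member was PDE_08641. In the wild type it stood at 817, 985 and 851 FPKM in glucose, at 271, 264 and 405 in GlcNAc, and at 283, 474 and 356 in bran plus cellulose. In the deletion strain the glucose libraries had 1168, 856 and 1074 FPKM, the GlcNAc libraries 368, 438 and 359, and the bran plus cellulose libraries 392, 480 and 391. Glucose was high and the other media were alike in both strains, and the strains overlapped in glucose, GlcNAc and bran plus cellulose.

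PDE_08630 came next and ran higher in the deletion strain. Wild-type values were 447, 551 and 564 FPKM in glucose, 164, 169 and 149.9 in GlcNAc, and 209.8, 259 and 199 in bran plus cellulose. Deletion values were 987, 773 and 891 in glucose, 289, 273 and 287 in GlcNAc, and 296, 281 and 348 in bran plus cellulose. Within each medium every deletion library exceeded every wild-type library, and the gap of 1.69 log2 units between glucose and GlcNAc in the wild type compared with a fitted change of −1.63 ± 0.12 (SE) from glucose to GlcNAc in the deletion strain.

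PDE_09441 showed the opposite strain order in glucose and GlcNAc. The wild type had 492, 467 and 457 FPKM in glucose, 77.3, 78.7 and 90.3 in GlcNAc, and 97.1, 89.4 and 76.7 in bran plus cellulose. The deletion strain had 332, 408 and 339.5 in glucose, 44.3, 59.3 and 57.6 in GlcNAc, and 85.7, 90.3 and 71.5 in bran plus cellulose. Its deletion libraries were all below the wild type in glucose and in GlcNAc and overlapped it in bran plus cellulose.

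For PDE_00149, the sixth by level, the wild type in glucose had 233, 271 and 284 FPKM against 166.7, 190.1 and 238 in the deletion strain, and the values overlapped. In GlcNAc it stood at 107, 107.9 and 106 in the wild type and at 104, 102 and 118 in the deletion strain. The bran plus cellulose libraries had 118, 136 and 114 against 135, 129 and 131. The strains overlapped in all media, and glucose was above both other media in each strain. In glucose the fitted strain difference was nonetheless called lower in the deletion strain (−0.41 ± 0.11 log2 units, SE), as in 22.8% of tested gene models.

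**Figure D2:**
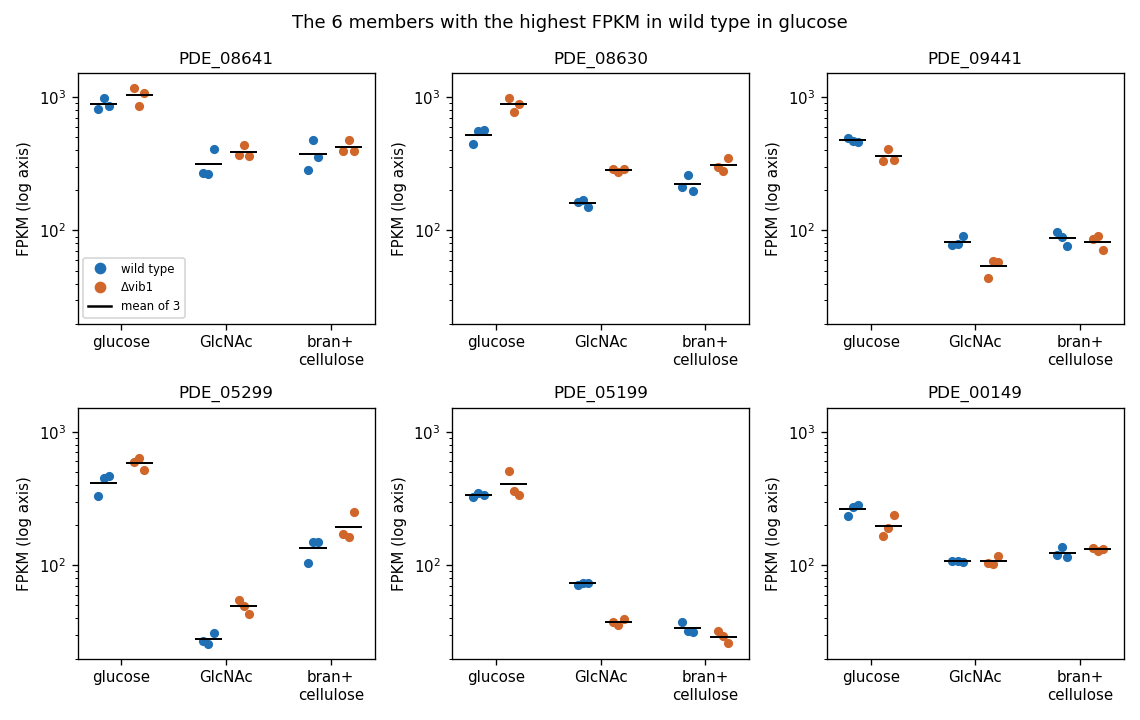
FPKM (log axis) of the 6 members with the highest wild-type glucose mean, in glucose, GlcNAc and bran plus cellulose. Points are the 3 libraries of each group, blue for wild type and orange for the vib1 deletion, and black lines are means. Glucose is the highest medium in every panel, and PDE_05299 and PDE_05199 separate the other 2 media in opposite order.

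Members differed in how far they fell outside glucose. PDE_05299 had the widest gap to GlcNAc: in the wild type it had 329.99, 453 and 463 FPKM in glucose, 27.3, 25.5 and 31.3 in GlcNAc, and 104, 149 and 150.01 in bran plus cellulose. The deletion strain had 592, 641 and 519.7 in glucose, 55.2, 49.4 and 43.2 in GlcNAc, and 170.3, 162 and 250.1 in bran plus cellulose. All 3 media were separated without overlap in both strains. The wild-type glucose mean was 14.8 times the GlcNAc mean and 3.09 times the bran plus cellulose mean.

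A like order was seen in PDE_05971, which had 171, 146 and 123 FPKM in wild-type glucose, 9.88, 11.4 and 9.94 in GlcNAc, and 86.7, 60.3 and 28.8 in bran plus cellulose. In the deletion strain it had 55.9, 165.5 and 114 in glucose, 8.48, 13.7 and 11.6 in GlcNAc, and 51.8, 48.2 and 49.9 in bran plus cellulose. Glucose was high and GlcNAc low without overlap, and bran plus cellulose lay between. The wild-type ratio of glucose to GlcNAc was 14.1.

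PDE_05199 fell furthest in bran plus cellulose. Its wild-type values were 326, 346 and 334 FPKM in glucose, 71.5, 74 and 74.2 in GlcNAc, and 37.8, 31.9 and 31.4 in bran plus cellulose, where the glucose mean was 9.96 times the bran plus cellulose mean. In the deletion strain the values were 512, 359 and 337 in glucose, 37.7, 35.5 and 39.3 in GlcNAc, and 32.3, 29.3 and 25.95 in bran plus cellulose. The GlcNAc libraries of the deletion strain were all lower than those of the wild type, by 0.95 log2 units, while glucose and bran plus cellulose overlapped between strains.

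Low outside glucose in both strains, PDE_01630 had 59.7, 63.4 and 53.1 FPKM in wild-type glucose against 6.74 to 8.53 in the 6 other wild-type libraries. In the deletion strain its glucose values were 151.7, 98 and 87.9, its GlcNAc values 11, 11.5 and 11.3, and its bran plus cellulose values 6.72, 6.42 and 6.2. The deletion strain was higher in glucose and GlcNAc without overlap. Its glucose mean was 17.5 times that in bran plus cellulose, against 7.87 times in the wild type.

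Among the 180 gene models that passed the wild-type part of the rule, the 36 members were those that also passed the strain part, and 144 did not. Of the 180, 69 were lower by at least 1 log2 unit in the deletion strain in glucose and 33 higher. In GlcNAc 60 were lower and 51 higher, and in bran plus cellulose 11 were lower and 31 higher. The members lacked the extremes of the 144: their median glucose mean was 80.2 against 147 FPKM, and 0 members against 23 of the 144 exceeded 1000 FPKM. The median gap of glucose over GlcNAc was 1.52 log2 units in the members and 2.22 in the 144, and over bran plus cellulose 1.32 and 1.75. A gap of 3 log2 units or more over GlcNAc was found in 3 members and 45 of the 144. A value of 0 in a wild-type library was found in 16 of the 144 and in 0 members. The strain part of the rule can by itself exclude genes of large range, so these are descriptions.

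Glucose stayed the highest of the 3 media in the deletion strain for all 36 members. The 3 glucose libraries lay above all 6 others in 32 members, against 18.3% of tested gene models, and overlapped in PDE_03791, PDE_04374, PDE_05898 and PDE_06684, named for that. The rule lets a deletion value depart from the wild type by less than 2 log2 units in such a difference, so the direction was fixed for the 10 members with a wild-type gap of at least 2 over GlcNAc and for the 9 with such a gap over bran plus cellulose, and favoured for the rest. From glucose to GlcNAc, the deletion strain had 35 members called lower and 0 called higher, where 27.0% of tested gene models were called lower and 41.8% higher. The median change of the members was −1.48 log2 units against 0.17 for all tested. Among the 26 members whose direction was favoured and not fixed, 25 were called lower. At a fall of at least 1 log2 unit there were 29 members, against 14.4% of tested gene models. These counts rest on differences that the rule bounds, and nothing is read from them.

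From glucose to bran plus cellulose, the deletion strain had 33 members called lower and 0 called higher, where 34.1% of tested gene models were called lower and 28.4% higher. The median change was −1.29 log2 units against −0.06 over all tested gene models. Of the 27 members whose direction the rule favoured and did not fix, 24 were called lower. A fall of at least 1 log2 unit was called in 23 of the 36, against 11.7% of tested gene models. Nothing is read from these counts either, for the same reason. The named members with the largest falls were PDE_05299 (−3.54 ± 0.18) and PDE_05199 (−3.37 ± 0.13, both SE) into GlcNAc, and PDE_01630 (−3.89 ± 0.15) and PDE_05199 (−3.72 ± 0.13) into bran plus cellulose. The deletion change exceeded the wild-type change in 17 members for GlcNAc and in 13 for bran plus cellulose. Glucose lay at least 1 log2 unit above both other media in 21 members in the deletion strain. For the counts of 17, 13 and 21 the shares of all tested gene models are not given here. The rule bounds the gaps they rest on, so nothing is read from them.

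At least 1 of the glucose gaps was not called in the deletion strain for 3 members, named here because of that: both gaps of PDE_06684 and the gap over bran plus cellulose of PDE_03791 and PDE_04374. PDE_06684 had 16.3, 18.3 and 14 FPKM in glucose, 13.9, 11.5 and 13.2 in GlcNAc, and 7.31, 14.6 and 11.2 in bran plus cellulose (limma log2 difference −0.31 ± 0.44, SE, adjusted p = 0.554 for GlcNAc, and −0.56 ± 0.44, adjusted p = 0.286 for bran plus cellulose). Its wild-type values were also spread, at 3.43, 11.7 and 4.67 in GlcNAc. PDE_03791 had 145, 149 and 178 FPKM in glucose against 147, 135 and 101 in bran plus cellulose in the deletion strain, which overlapped (−0.31 ± 0.13, limma adjusted p = 0.0514). PDE_04374 had 20.2, 18.9 and 8.37 against 11.8, 7.1 and 4.84, also overlapping (−0.90 ± 0.41, limma adjusted p = 0.0705). From glucose to GlcNAc in the deletion strain PDE_03791 and PDE_04374 were called lower, with changes of −1.35 ± 0.13 and −0.99 ± 0.41 (SE). A p above the threshold does not show that the levels were equal.

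**Figure D3:**
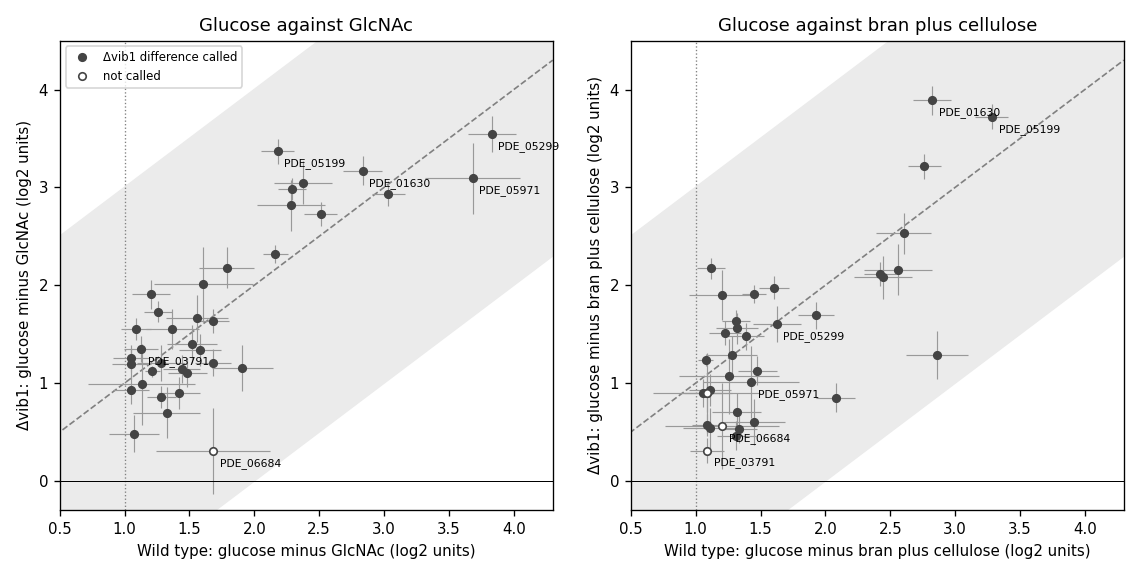
Log2 difference of glucose over GlcNAc (left) and over bran plus cellulose (right) in wild type (x axis) and in the vib1 deletion (y axis) for the 36 members, with standard errors. The grey band is the range of 2 log2 units within which the rule holds the deletion value, the dotted line marks the 1 log2 unit asked of the wild type, and open points were not called in the deletion strain.

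The strain differences, bounded by the rule, were spread over both directions. In glucose the deletion strain had 10 members called higher and 6 called lower, in an experiment where 42.1% and 22.8% of tested gene models were called so, with median differences of 0.18 log2 units in the members and 0.18 over all tested. In GlcNAc 14 were called higher and 8 lower (background 44.8% and 29.7%; medians 0.19 and 0.20). In bran plus cellulose 18 were called higher and 3 lower (background 13.2% and 13.5%; medians 0.35 and 0.01). Nothing is read from these counts, since the same contrasts chose the members. After rescaling the libraries by the median ratio of genes, which moved the median of all genes to 0.00 in glucose and GlcNAc, the calls were 7 higher and 8 lower in glucose and 8 and 10 in GlcNAc, so the majority turned. Rescaling to equal totals went the other way, with 15 higher and 3 lower in glucose and 19 and 5 in GlcNAc. The medians over all tested gene models were then 0.31 in glucose and 0.42 in GlcNAc, against 0.31 and 0.41 in the members. The shift was thus not particular to the members, and the shares of all tested gene models called after rescaling are not given here. Both rescalings gave 16 and 3 in bran plus cellulose, and a fit to the 6 libraries of that medium alone called 5 higher and 1 lower.

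Values of PDE_01684 showed the widest upward difference in glucose, with 79.6, 82 and 77.6 FPKM in the wild type and 173, 159 and 128 in the deletion strain. It was also higher without overlap in GlcNAc (16.2, 17.5 and 17.4 against 29.5, 28.8 and 30.8) and in bran plus cellulose (28.1, 30.3 and 27.2 against 38.4, 37.5 and 43.6). The deletion strain was thus the higher one throughout. Its log2 differences were 0.93 ± 0.09, 0.77 ± 0.09 and 0.47 ± 0.09 (SE).

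PDE_00929 and PDE_03791 had the largest falls among the 6 members called lower in glucose. PDE_00929 had 53.2, 57.6 and 51.7 FPKM in the wild type and 32.7, 25.9 and 40.9 in the deletion strain, and PDE_03791 had 224, 227 and 237 against 145, 149 and 178. Neither overlapped between strains. In bran plus cellulose PDE_00929 turned the other way, with 4.08, 7.35 and 9.31 in the wild type and 11.8, 13.2 and 13.4 in the deletion strain.

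Falls in GlcNAc were widest in PDE_02167, at 19.4, 18.4 and 14.8 FPKM in the wild type and 8.23, 8.32 and 8.59 in the deletion strain, without overlap (−0.98 ± 0.15 log2 units, SE). It ran the other way in bran plus cellulose, with 15.4, 18.7 and 14.5 against 24.9, 22.6 and 26.3. PDE_02957 had the largest fall of the 3 members called lower in bran plus cellulose, with 66.5, 60.1 and 51 in the wild type and 40.3, 32.8 and 30.5 in the deletion strain. Both PDE_02167 and PDE_02957 had deletion libraries on 1 side of the wild type within each of those media.

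In bran plus cellulose, higher values in the deletion strain were found for PDE_00464 (20.6, 19.8 and 10.6 FPKM against 28.5, 29.3 and 37.1) and PDE_01747 (13, 14.2 and 4.67 against 18.2, 17 and 20.7). In both, replicate 3 of the wild type, the library with the widest residual spread, was far below the other 2. Without it the difference of PDE_01747 went from 0.88 to 0.42 log2 units and that of PDE_00464 from 0.91 to 0.62, and both were still called.

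Over the 3 media, the strain difference was called in none for 4 members, in 1 for 14, in 2 for 9, and in all 3 for 9. Over all tested gene models these shares were 10.6%, 28.5%, 45.2% and 15.7%. The 4 uncalled in any medium were PDE_04031, PDE_04374, PDE_05971 and PDE_08641, and by the rule of the smallest largest difference the closest to equal were PDE_04374 (at most 0.24 log2 units) and PDE_08641 (at most 0.31). PDE_04374 was also among the noisier members, with a coefficient of variation of 35.4% in wild-type glucose, so its interval is wide. The deletion mean was the higher one in all 3 media for 15 members and the lower one in all 3 for 3. The shares of all tested gene models for these counts are not given here. After median-ratio rescaling the fitted differences were above 0 in 18 members and below it in 18 in glucose. They were above 0 in 16 and below it in 20 in GlcNAc, and in 26 and 10 in bran plus cellulose. These contrasts chose the members, so nothing is read from the counts.

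**Figure D4:**
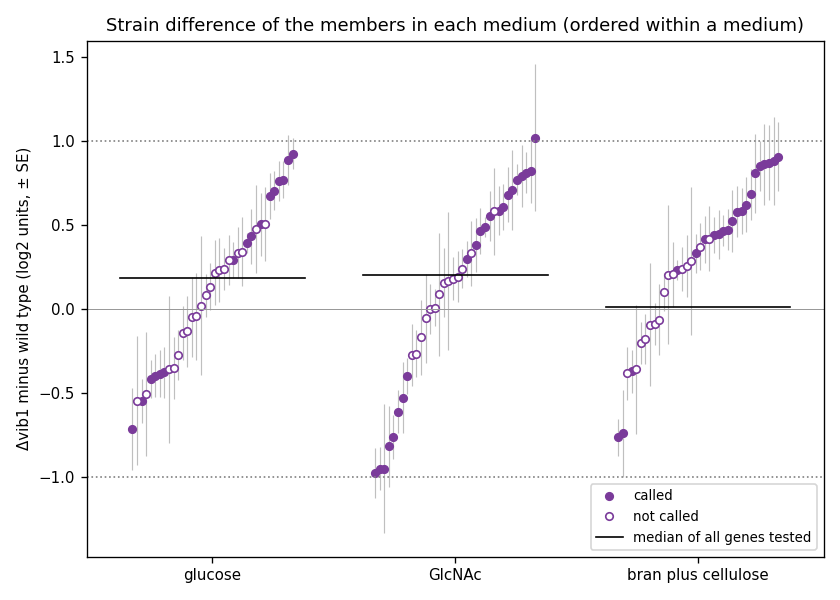
Log2 difference of the vib1 deletion over wild type (± SE) for the 36 members in each of 3 media, ordered within a medium. Filled points were called at an adjusted p under 0.05, dotted lines mark the bound of 1 log2 unit set by the rule, and the black line is the median of all tested gene models. Points lie on both sides of 0 in each medium, and most lie above 0 in bran plus cellulose. PDE_06684 in GlcNAc lies at 1.02, since the fit averages log2 values, and at 0.87 by the rule, which takes the log2 of the mean.

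No threshold of the rule was set on the comparison between bran plus cellulose and GlcNAc. In the wild type it is still the difference between the glucose gaps that the rule used. The strain bounds hold the deletion value within 2 log2 units of it. The member counts below are therefore not independent of the choice of members and are descriptions. In the wild type 7 members were called higher and 7 lower in bran plus cellulose, against 33.2% and 27.6% of tested gene models (19.4% of the members each way). Without replicate 3 of the wild type in bran plus cellulose the higher count became 12. The member median was 0.07 log2 units, against 0.04 over all tested gene models. By at least 1 log2 unit, 3 members rose and 2 fell, where 13.3% and 7.89% of tested gene models did. The deletion strain had 16 called higher and 6 called lower, against a background of 27.8% and 41.3%, and the member median was 0.25 against −0.15. By that margin 5 rose and 1 fell (background 13.4% and 12.5%). After rescaling to equal library totals the deletion counts became 9 higher and 10 lower, and after median-ratio rescaling 20 higher and 4 lower. The majority was thus lost with equal totals and grew with the median ratio. The higher count of 16 fell to 10 without replicate 2 of the deletion strain in GlcNAc and to 9 without its replicate 3 in bran plus cellulose.

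The rises were led in both strains by PDE_05971 and PDE_05299, whose values are given above. PDE_05971 rose by 2.26 ± 0.37 log2 units in the wild type (SE, limma adjusted p = 9.19e-05) and by 2.08 ± 0.37 in the deletion strain (limma adjusted p = 0.000146). PDE_05299 rose by 2.20 ± 0.18 (limma adjusted p = 9.09e-08) and by 1.94 ± 0.18 (limma adjusted p = 2.73e-07). In all libraries of both members bran plus cellulose was above GlcNAc. The spread of PDE_05971 in wild-type bran plus cellulose was large, and without replicate 3 its rise became 2.69.

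The falls in the wild type were led by PDE_00929, with 20.3, 18.8 and 14.5 FPKM in GlcNAc and the bran plus cellulose values given above, a fall of 1.30 ± 0.24 log2 units (SE, limma adjusted p = 0.000279). In the deletion strain its GlcNAc libraries had 11.9, 11 and 6.74 FPKM and overlapped those in bran plus cellulose. PDE_05199 fell by 1.10 ± 0.13 (limma adjusted p = 2.66e-06) in the wild type and by 0.36 ± 0.13 (limma adjusted p = 0.0215) in the deletion strain. PDE_02392 led the falls in the deletion strain, with 16.7, 14.2 and 20.03 FPKM in GlcNAc and 7.02, 4.01 and 10.6 in bran plus cellulose (−1.20 ± 0.26, limma adjusted p = 0.000714). PDE_01630 fell by 0.72 ± 0.15 (limma adjusted p = 0.000541). For PDE_00929, PDE_02392 and PDE_01630 the GlcNAc libraries were all above the bran plus cellulose libraries in the strain named.

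Between the strains, 5 members were called higher in both (PDE_01684, PDE_01897, PDE_02957, PDE_05299 and PDE_05971) and 2 lower in both (PDE_05199 and PDE_09829) and are named as short lists after their values were seen. Of the others, 11 were called higher in the deletion strain alone, 4 lower in it alone, 2 higher in the wild type alone, 5 lower in the wild type alone, and 7 in neither. Over all tested gene models the shares were 10.9% higher in both, 10.1% lower in both, 8.26% higher and 16.8% lower in the deletion strain alone, 7.79% higher and 8.97% lower in the wild type alone, and 14.1% in neither. None of the members was called in opposite directions, against 23.1% of tested gene models, and the bound of the rule on the difference between strains limits such members. Whether the change differed between the strains was tested for each member, and 10 members were called higher and 6 lower in that difference, against 26.7% and 40.3% of tested gene models (67.0% in either direction). Rescaling to equal library totals turned that split, to 6 higher and 9 lower, and the median ratio widened it, to 13 and 3. The difference tested equals the strain difference in bran plus cellulose minus that in GlcNAc, and the rule used both. The rule thus bounds it to under 2 log2 units, and nothing is read from its counts.

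**Figure D5:**
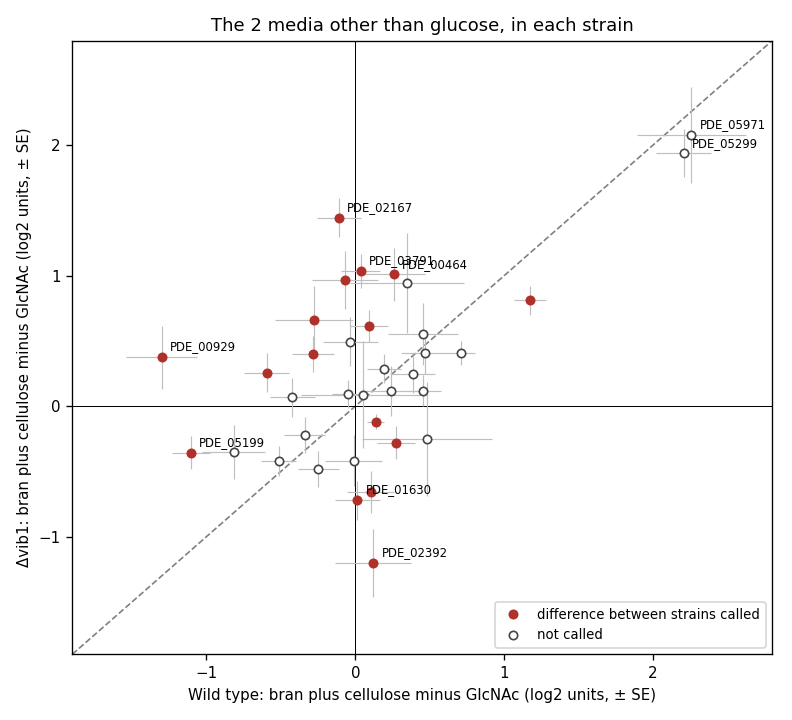
Log2 difference of bran plus cellulose over GlcNAc in wild type (x axis) and in the vib1 deletion (y axis), ± SE, for the 36 members. Filled points had a difference between strains with an adjusted p under 0.05, and the dashed line marks equal change. PDE_05971 and PDE_05299 lie near the line at upper right, PDE_02167 and PDE_00929 above it, and PDE_02392 below it.

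Some members neighboured each other in the numbering of the table, which the files do not show to be chromosome order. Another member stood at the next number for 4 of the 36 members (11.1%), compared with 64 of the 9146 gene models with such tags (0.700%) that had a member next to them. The pairs were PDE_04031 with PDE_04032 and PDE_05897 with PDE_05898, and PDE_08639 and PDE_08641 were 2 apart, with the number between them absent from the table. PDE_04031 had 92.4, 104 and 127 FPKM in wild-type glucose and 45.4, 39 and 46.2 in GlcNAc, and PDE_04032 had 40.5, 41.9 and 38.1 and 17.1, 20.2 and 19.5. Both had lower means in the deletion strain in glucose and in GlcNAc and higher means in bran plus cellulose. The other pair went apart, with PDE_05897 averaging 59.1 in wild-type glucose and 101 in the deletion strain, and PDE_05898 averaging 11.9 and 8.79.

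Next to PDE_01630 stood PDE_01629, a glucose-high gene model outside the set. It averaged 738.7 ± 34.2 FPKM (SD, n = 3) in wild-type glucose, 3.55 ± 0.378 in GlcNAc and 1.35 ± 0.314 in bran plus cellulose. In the deletion strain it averaged 832.9 ± 220 in glucose, 0.593 ± 0.214 in GlcNAc and 1.23 ± 0.345 in bran plus cellulose. It missed the set on a strain difference of −1.51 log2 units in GlcNAc, where both means were low, and was within the bound in glucose (0.17). A gene model that passed the wild-type part of the rule stood next to 7 members (19.4%), against 303 of 9146 (3.31%).

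The thresholds cut through a continuous range in places. For glucose over GlcNAc in the wild type, PDE_04032 (1.05) and PDE_03781 (1.05) lay just inside 1 log2 unit and PDE_04186 (0.99) and PDE_07273 (0.97) just outside. For glucose over bran plus cellulose, PDE_06684 (1.00) and PDE_04499 (1.05) were inside and PDE_07953 (0.98) and PDE_04566 (0.93) outside. For the strain difference, PDE_01684 (0.94) and PDE_01630 (0.93) were inside in glucose and PDE_04362 (1.17) outside, and at the lower bound PDE_00929 (−0.69) was inside and PDE_08115 (−1.02) outside. In GlcNAc, PDE_02167 (−0.98) was inside at the lower bound and PDE_03824 (−1.26) outside, and PDE_06684 (0.87) was inside at the upper bound and PDE_03057 (1.04) outside. In bran plus cellulose, PDE_04772 (0.89) and PDE_00464 (0.86) were inside at the upper bound and PDE_03439 (1.03) outside, and at the lower bound PDE_02957 (−0.76) was inside and PDE_00092 (−3.72) outside. On the level, PDE_05898 (11.9 FPKM) and PDE_00922 (12.2 FPKM) were inside and the next below were PDE_09247 (4.46 FPKM) and PDE_01185 (3.85 FPKM).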

How the data were processed

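Per the labels' protocols, mRNA captured on oligo(dT) beads was made into cDNA, cut with NlaIII, reduced to short tags with MmeI and sequenced on an Illumina instrument. The authors deposited one table of FPKM values for 9176 gene models in 18 libraries, per the file headers. Aligner, quantifier, genome build, gene lengths and the way FPKM was made from tags were not given in the sources used here, so depth is unknown and no counting interval is given. FPKM comparisons between genes depend on that length scaling, and those of 1 gene between libraries do not.

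Groups came from the sample titles. Values were used as log2(FPKM + 1), which understates changes of low genes. One model with 6 group means was fitted with limma 3.58.1 in R 4.3.3 (trend and robust, 12 residual degrees of freedom) to the 8455 gene models that reached 1 FPKM in 3 or more libraries, 721 being left out. Two-sided p-values were adjusted by Benjamini-Hochberg over all tested gene models, called at an adjusted p under 0.05. Tables and plots were made with Python 3.11.15, pandas 2.3.3, numpy 2.4.6 and matplotlib 3.10.9.

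The members and lists were chosen with earlier results of these data known. Named members were the 6 highest in wild-type glucose, up to 2 higher and 2 lower per comparison among called members of at least 10 FPKM without overlap, the 2 with the smallest strain differences, those at the thresholds, and neighbouring tags. Of the table's tags 0 matched the 9964 rows of the reference annotation, so keyword lists of functions were void and no sequence is shown. The test of a strain difference in the change between bran plus cellulose and GlcNAc, and the values without replicate 3 of the wild type in bran plus cellulose, were added after the data were seen. Alternatives were pseudocounts of 0.1 and 5, other filters, rescalings, a threshold of 1 log2 unit, limma without trend and robust, only the groups compared, a replicate block, and leaving out each library.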

Additional observations from a re-analysis of the deposited data

Results flagged for a closer look

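For 16 of the 36 members the change from GlcNAc to bran plus cellulose differed between the strains by a direct test of that difference (limma, adjusted p under 0.05), where 67.0% of tested gene models were called. The values below are the deletion change minus the wild-type change in log2 units, and the genes were picked by that test. The rule holds each of them under 2. Each equals the strain difference in bran plus cellulose minus that in GlcNAc, and the rule used both to choose the members. The counts and p-values are therefore descriptions of chosen members, and nothing is read from them.

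The difference was upward in 10 members and downward in 6, a split that became 6 and 9 after rescaling to equal totals and 13 and 3 after median-ratio rescaling. It was 1.68 ± 0.34 in PDE_00929 (SE, limma adjusted p = 0.000502), 1.56 ± 0.21 in PDE_02167 (limma adjusted p = 1.21e-05), 1.04 in PDE_04772, 1.00 in PDE_03791, 0.94 in PDE_01747, 0.85 in PDE_05733, 0.75 in PDE_00464, 0.75 in PDE_05199, 0.68 in PDE_04032 and 0.52 in PDE_09441. In PDE_00929 the wild type fell by 1.30 while the deletion strain changed by 0.38 without a call. PDE_02167 changed by −0.11 in the wild type without a call and rose by 1.44 in the deletion strain. Without replicate 3 of the wild type in bran plus cellulose, the difference of PDE_00464 went to 0.46 (limma adjusted p = 0.0671) and that of PDE_01747 to 0.48 (limma adjusted p = 0.0191).

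Downward differences were −1.32 ± 0.36 in PDE_02392 (SE, limma adjusted p = 0.00487), −0.76 in PDE_07204, −0.73 in PDE_01630, −0.55 in PDE_08300, −0.37 in PDE_02957 and −0.25 in PDE_08639. In PDE_08300 and PDE_08639 the unscaled libraries moved in opposite directions in the strains without overlap, and neither change was called within a strain. The changes in the wild type and the deletion strain were 0.27 and −0.28 log2 units in PDE_08300 and 0.14 and −0.12 in PDE_08639. Over all tested gene models the medians were 0.04 and −0.15, so the deletion fall of PDE_08639 was smaller than the median. The share of all tested gene models with such a pattern, and its values after rescaling, are not given here. Without replicate 3 of the wild type in bran plus cellulose the wild-type changes were called, at 0.36 in PDE_08300 (limma adjusted p = 0.039) and 0.18 in PDE_08639 (limma adjusted p = 0.0189).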

How the results depend on the processing

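The rule gave 36 members, and 30 to 44 when 1 library was left out, the lowest without replicate 3 and the highest without replicate 1 of the wild type in glucose. It gave 35 with a pseudocount of 0.1, 35 with 5 (27 of them shared), 50 after median-ratio rescaling (31 shared) and 32 after rescaling to equal totals (30 shared), and 15 members were in every one of these sets. The counts of calls below are for the 36, and the cause of each change was not tested. The shares of all tested gene models called under these alternatives are not given here, so a moved count may be shared by all genes.

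With a difference of at least 1 log2 unit required, strain calls were 0 higher and 0 lower in glucose, 1 and 0 in GlcNAc, and 0 and 0 in bran plus cellulose, as the rule bounds them. The change from GlcNAc to bran plus cellulose kept 3 higher and 2 lower in the wild type, 5 and 1 in the deletion strain, and 3 and 1 in the difference between strains. Rescaling to equal totals gave 15 higher and 3 lower in the strain difference in glucose and 19 and 5 in GlcNAc, 11 higher in the wild type from GlcNAc to bran plus cellulose, 9 higher and 10 lower for the deletion, and 6 higher and 9 lower in the difference between strains. Median-ratio rescaling gave 8 higher in the strain difference in GlcNAc. From GlcNAc to bran plus cellulose it gave 20 higher and 4 lower for the deletion, and 13 higher and 3 lower in the difference between strains. A fit to only the groups compared gave 3 lower in glucose, and 5 higher and 1 lower in bran plus cellulose. A pseudocount of 5 gave 1 lower in bran plus cellulose.

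Leaving out 1 library, strain calls ran from 7 to 13 higher and 3 to 9 lower in glucose (3 without replicate 2 of either strain in glucose), 11 to 15 and 6 to 8 in GlcNAc, and 12 to 18 and 1 to 4 in bran plus cellulose. Falls in the wild type ran from 35 to 36 into GlcNAc and 33 to 36 into bran plus cellulose, and in the deletion strain from 32 to 35 and 28 to 34. From GlcNAc to bran plus cellulose the wild type had 5 to 12 higher and 5 to 8 lower, the deletion strain 9 to 16 and 5 to 8, and the difference between strains 7 to 12 and 5 to 8.

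Replicate numbers did not pair the samples: of 45 same-numbered pairs of libraries, 4 had residuals correlated above 0.1 (range −0.107 to 0.181), and 8 of 18 libraries correlated best with their own number. With the replicate block, the deletion strain had 34 members lower in GlcNAc and 33 in bran plus cellulose, and from GlcNAc to bran plus cellulose 14 were higher and 7 lower. Of 2916 values of named genes under the alternatives, 2777 kept direction and call, 80 lost a call, 30 gained one, and 29 uncalled values changed sign. Depth is unknown, so its part in the uncalled results was not tested.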

Other observations

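The members together made up a small share of each library. Their summed FPKM per 1000000 FPKM of the library total was 4870, 5546 and 5385 in wild-type glucose, 1400, 1410 and 1536 in GlcNAc, and 1775, 2054 and 1672 in bran plus cellulose. In the deletion strain it was 7185, 6316 and 6649 in glucose, 1897, 1985 and 2032 in GlcNAc, and 2133, 2173 and 2358 in bran plus cellulose. On this scale every deletion library exceeded every wild-type library of the same medium. The totals of the deletion libraries in glucose and GlcNAc were lower than those of the wild type, and the unscaled member sums did not overlap either: 5851 to 6776 FPKM against 4963 to 5595 in glucose, 1781 to 1878 against 1558 to 1658 in GlcNAc, and 2192 to 2371 against 1669 to 2106 in bran plus cellulose. After median-ratio rescaling the sums overlapped in glucose (5578 to 6279 in the deletion strain, 5529 to 6312 in the wild type) and in GlcNAc (1587 to 1684 and 1637 to 1762), and not in bran plus cellulose (2150 to 2397 and 1742 to 2067), so the separation in glucose and GlcNAc depends on the scaling. Abundant members weigh most in such sums, and not every member went the same way. The deletion mean was higher in 21 members and lower in 15 in glucose, 24 and 12 in GlcNAc, and 26 and 10 in bran plus cellulose. These sums and counts use the contrasts that chose the members and are a description.

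Replicates of the members varied by a median of 7.94% (coefficient of variation) in the deletion strain in GlcNAc to 18.2% in the wild type in bran plus cellulose. In all 6 groups the median log2 SD of the members was above that of all tested gene models, for example 0.24 against 0.17 in wild-type bran plus cellulose. The root mean square residual went the other way in most libraries, for example 0.127 against 0.230 in replicate 2 of wild-type glucose. It was higher in the members in replicate 1 of wild-type bran plus cellulose (0.325 against 0.313). The measures differ, so the members are not called noisier than other gene models.

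A neighbour of PDE_07204 in the numbering, PDE_07205, lies outside the set, was picked with its values known, and averaged 146 ± 14.2 FPKM (SD, n = 3) in wild-type glucose and 679.8 ± 82.4 in the deletion strain, and 21.7 ± 2.53 and 2.67 ± 0.44 in GlcNAc. PDE_07204 itself had 153, 177 and 191 FPKM in wild-type glucose and 157, 157 and 155 in the deletion strain.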
